A study of Homo sapiens with 6 samples.

Results

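The 9 genes described here encode enzymes that set the supply of deoxynucleotides, the building blocks of DNA: RRM1, RRM2, RRM2B, TYMS, TK1, DUT, DCK, DTYMK and SAMHD1. They were chosen by symbol, and each of the 9 was found once among the 35268 named genes of the deposited matrix. The cells were Rh30, an established fusion-positive rhabdomyosarcoma (FP-RMS) cell line, and their polyadenylated RNA was sequenced. For 24 hours they received YK-4-279, dissolved in DMSO, at 1 µM (3 libraries) or the DMSO vehicle alone (3 libraries). YK-4-279 is a small molecule studied as an inhibitor of ETS transcription factor interactions, and the comparison asked how it alters gene expression in FP-RMS cells. A single cell line, dose and time were profiled, and nothing in the sources used here states whether the libraries came from separate cultures, so the p-values measure the spread between these libraries only.

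Ribonucleotide reductase converts ribonucleotides to deoxyribonucleotides and is the gate of the whole supply. The thymidine branch is built separately: dUTPase removes dUTP, thymidylate synthase methylates dUMP to dTMP, and thymidine kinase recovers dTMP from thymidine. Most of these enzymes are made when cells enter S phase, whereas SAMHD1 breaks deoxynucleotides down and RRM2B, a p53 target, serves resting and DNA-damaged cells.

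Of the 9 genes, 5 fell after YK-4-279 treatment: TYMS, RRM2, RRM1, DCK and DUT, with log2 fold changes of -0.57 to -0.32. None rose. TK1 and DTYMK had smaller differences that did not pass the test with all libraries, and RRM2B and SAMHD1 stayed within the spread between replicates. The median log2 fold change was -0.32 over the 9 genes and -0.01 over all 13930 genes tested. The test was limma on log2(normalized count + 1), a moderated linear model fitted to every gene with a mean of at least 10, and a gene was called at a Benjamini-Hochberg adjusted p-value under 0.05. By this rule 2.15% of the genes tested were lower and 1.26% higher with the drug, against 5 lower and 0 higher of these 9. The count depended on the libraries and on the setting. Without YK-4-279 replicate 1, 2 or 3, RRM2 alone was called, while over all genes 19, 23 and 46 were. With all libraries, RRM2 alone was called by eBayes without trend, and RRM1, RRM2 and TYMS with quantile normalization or with the replicate number as a block. Calls by count models on the recovered reads were 5 of 9 lower in edgeR, where 1.86% of the genes were lower, and 6 of 9 in DESeq2, where the share was 2.84%. In bulk RNA, fewer cells in S phase and less RNA of these genes per cell cannot be told apart.

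The libraries held 16724650 to 24677433 reads on named genes. The myogenic markers MYOD1, MYOG, DES, CHRNA1 and CDH15 were abundant in each library, with MYOD1 between 34516 and 39146 normalized counts, whereas MYF6 had at most 1.26. Leukocyte markers summed to at most 1.00 normalized count per library, endothelial markers to 33.4 to 48.0 and epithelial markers to 50.1 to 90.0, nearly all EPCAM, whose log2 change of 0.38 did not pass the test (limma adjusted p = 0.305), and CD68 and KRT5 were at 0. Over all genes, 475 were called, 299 lower and 176 higher, and with quantile normalization 145 lower and 132 higher. The balance turned with eBayes without trend (3 lower, 30 higher) and without YK-4-279 replicate 1 (4 and 15), 2 (7 and 16) or 3 (18 and 28). The library of DMSO replicate 1 was the least like the rest: its mean correlation across genes was 0.989, against at least 0.992 for each of the other 5. Its reads were 6.05% mitochondrial, against 4.74% to 5.03%, and its deviations correlated with transcript GC content at r = -0.50, against 0.08 to 0.29.

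Promoters are shown for 4 genes to set members that fell (RRM2 and TYMS) beside one with a smaller difference (TK1) and one with none (SAMHD1). Each is the 250 bases before the RefSeq start (GRCh38.p14), 5′ to 3′ on the gene's strand. The windows are chr2:10122489-10122738 (plus strand) for RRM2, chr18:657403-657652 (plus) for TYMS, chr17:78187053-78187302 (minus) for TK1 and chr20:36951709-36951958 (minus) for SAMHD1. Capitals mark the motifs searched on both strands.
RRM2: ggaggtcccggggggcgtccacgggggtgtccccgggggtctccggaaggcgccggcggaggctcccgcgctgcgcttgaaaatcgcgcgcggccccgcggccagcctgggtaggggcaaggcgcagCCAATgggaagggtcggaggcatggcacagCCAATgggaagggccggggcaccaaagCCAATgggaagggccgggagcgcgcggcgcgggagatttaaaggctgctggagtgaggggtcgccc
TYMS: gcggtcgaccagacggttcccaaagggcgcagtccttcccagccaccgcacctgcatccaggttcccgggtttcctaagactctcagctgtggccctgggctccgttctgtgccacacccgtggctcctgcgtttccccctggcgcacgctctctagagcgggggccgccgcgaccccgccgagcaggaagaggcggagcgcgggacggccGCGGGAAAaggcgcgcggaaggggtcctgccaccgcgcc
TK1: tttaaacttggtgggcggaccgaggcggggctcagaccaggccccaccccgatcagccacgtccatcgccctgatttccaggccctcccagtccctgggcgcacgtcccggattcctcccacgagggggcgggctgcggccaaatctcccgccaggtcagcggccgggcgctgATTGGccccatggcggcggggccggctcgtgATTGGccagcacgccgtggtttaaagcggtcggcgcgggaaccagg
SAMHD1: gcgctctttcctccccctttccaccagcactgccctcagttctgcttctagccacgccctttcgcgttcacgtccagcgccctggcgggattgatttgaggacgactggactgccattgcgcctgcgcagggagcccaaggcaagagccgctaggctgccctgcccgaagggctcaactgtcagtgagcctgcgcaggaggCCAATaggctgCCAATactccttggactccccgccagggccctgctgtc

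The RefSeq table held a promoter for 8 of the 9 genes, with no entry for RRM2B, and where it held several the one nearest the canonical transcript's start was taken. Of 35116 promoter windows of this length, 32.0% held the CCAAT box (CCAAT, bound by NF-Y), 2.79% an E2F motif (TTTCCCGC, TTTCGCGC, TTTGCCGC or TTTGGCGC), 13.3% the CHR of cell cycle genes (TTTGAA) and 3.42% an ETS motif (CCGGAAGT). RRM2 held 3 CCAAT boxes, starting 123, 93 and 66 bases before the start, and TK1, DTYMK and SAMHD1 held 2 each. RRM1 held 1 CCAAT box and 1 CHR. TYMS alone held an E2F motif, 39 to 32 bases before its start, while DUT and DCK held none of the 4 motifs. In the exact form searched, the ETS motif was found in none of the 8 windows. With 3.42% of all windows holding it, this tells little, and other forms of ETS site were not searched. No matches overlapped, and CCAAT boxes occurred both in genes that fell and in SAMHD1.

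Ribonucleotide reductase consists of a large catalytic subunit, RRM1, and a small subunit that carries the tyrosyl radical, either the S phase form RRM2 or the p53-inducible RRM2B. RRM2 (chromosome 2, 10122739 to 10131414, plus strand, canonical transcript on hg38) had 15668, 14944 and 14858 normalized counts in DMSO replicates 1, 2 and 3 and 10294, 10853 and 10660.4 in YK-4-279 replicates 1, 2 and 3. The highest YK-4-279 value was well below the lowest DMSO value. The mean fell from 15157 ± 445 to 10603 ± 284 (± SD, n = 3 per group), which is a difference of -0.52 ± 0.05 (standard error) on the log2 scale with a limma adjusted p = 0.000374. RRM2 was the single member past the threshold under every alternative tried, with log2 fold changes from -0.53 to -0.45 and adjusted p-values up to 0.0454.

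Normalized counts of RRM1 (chromosome 11, 4094799 to 4138932, plus strand) were 5139, 4395 and 4380.1 in the DMSO libraries and 3476, 3573 and 3388 in the YK-4-279 libraries. The groups did not overlap, and DMSO replicate 1 was the highest library. RRM1 fell by 0.41 on the log2 scale (standard error 0.07, limma adjusted p = 0.00741), and the value was -0.33 (adjusted p = 4.08e-08) without DMSO replicate 1. Without YK-4-279 replicate 1, 2 or 3 the adjusted p was 0.0891, 0.0733 and 0.0677. RRM1 also missed the threshold when limma was run without its intensity trend (adjusted p = 0.113).

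For RRM2B (chromosome 8, 102204502 to 102238961, minus strand) the DMSO libraries held 677, 492 and 524 normalized counts and the treated ones 535, 559 and 492. The groups overlapped, and the spread of the DMSO libraries came mainly from replicate 1. The fitted log2 change, -0.08, had a 95% interval from -0.32 to 0.16 (limma adjusted p = 0.735), and it turned to 0.06 without DMSO replicate 1.

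**Figure D1:**
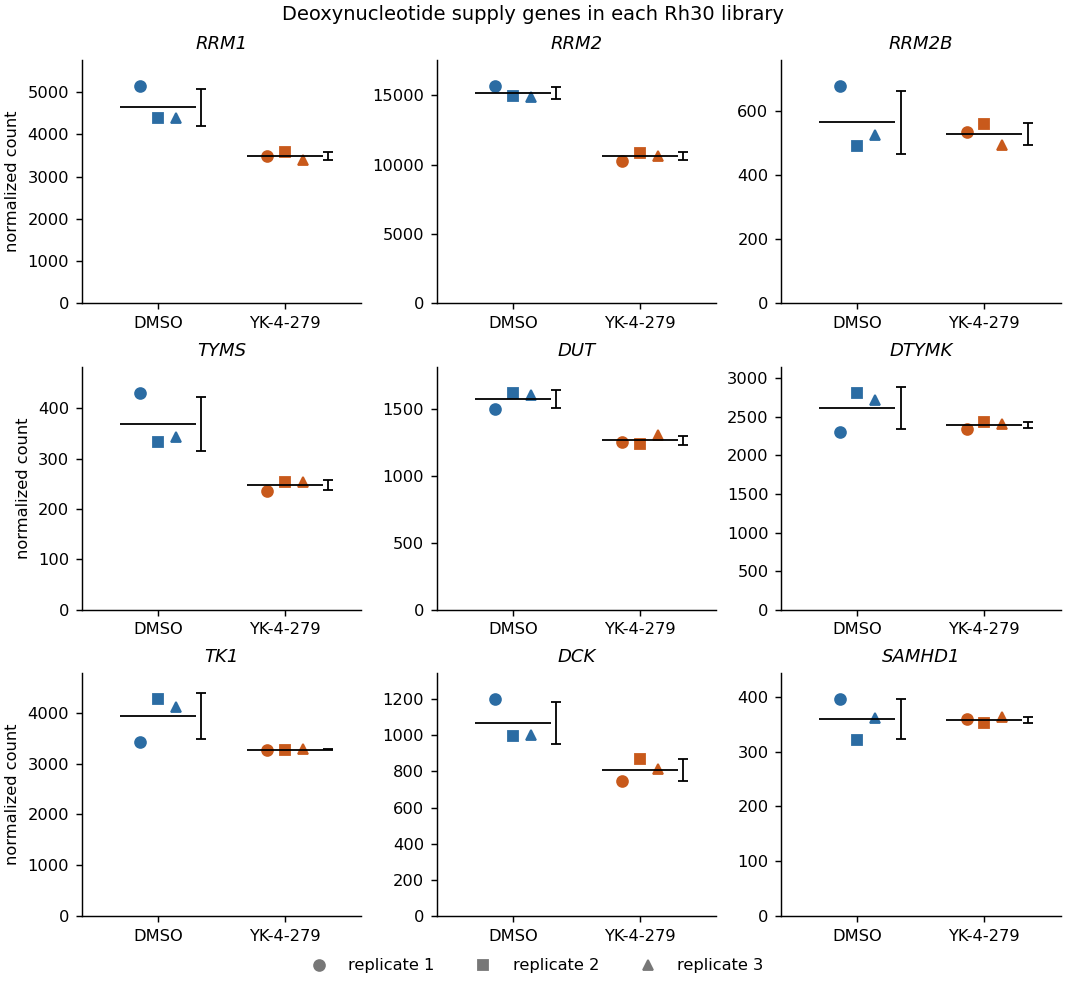
Normalized counts (vertical axes, from 0) of the 9 genes in each library, grouped by treatment (blue, DMSO; orange, YK-4-279), with a marker shape for each replicate, a line at the group mean and a bar of ± 1 SD. RRM1, RRM2, TYMS, DUT, TK1 and DCK show no overlap between the groups, whereas RRM2B, DTYMK and SAMHD1 overlap.

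Within a library, the RRM2 to RRM2B ratio of normalized counts was 23.1, 30.4 and 28.4 with DMSO and 19.3, 19.4 and 21.7 with YK-4-279. All 3 drug-treated libraries lay below the lowest DMSO library. The log2 ratio differed by -0.43 (exact two-sided permutation test, p = 0.10, the smallest p that 3 against 3 libraries allow; 0.15 after adjustment over 3 ratios). The RRM2 to RRM1 ratio was 3.05, 3.40 and 3.39 with DMSO and 2.96, 3.04 and 3.15 with the drug, a log2 difference of -0.10 (exact permutation p = 0.20, adjusted 0.20). These groups overlapped, since DMSO replicate 1 lay within the range of the treated libraries. Without DMSO replicate 1, the RRM2 to RRM1 difference was -0.16 on the log2 scale.

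**Figure D2:**
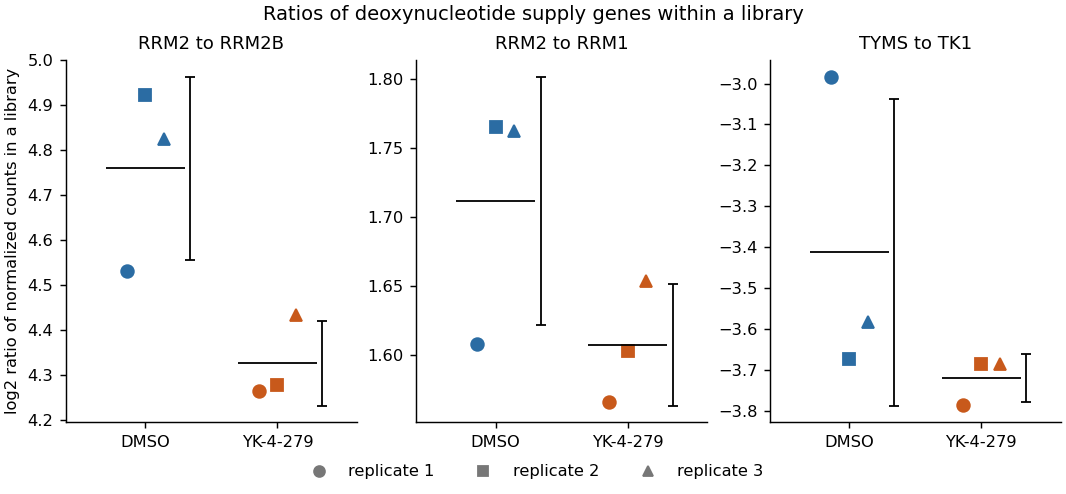
Log2 ratio of normalized counts within each library (vertical axes, which do not start at 0) for RRM2 to RRM2B, RRM2 to RRM1 and TYMS to TK1, with a marker for each replicate, a line at the mean and a bar of ± 1 SD. The RRM2 to RRM2B ratio is lower in each drug-treated library, and the spread of the TYMS to TK1 ratio with DMSO comes from replicate 1.

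In the thymidylate route, thymidylate synthase, TYMS, makes dTMP from dUMP and is the target of fluorouracil. Normalized counts of TYMS (chromosome 18, 657653 to 673578, plus strand) were 431, 334 and 343 in the DMSO libraries and 236, 253 and 254 in the YK-4-279 libraries. The groups did not overlap and the highest value was again DMSO replicate 1. At -0.57 (standard error 0.11, limma adjusted p = 0.0150), its log2 change was the largest in size of the 9 in the fit to all libraries, and it was -0.45 without DMSO replicate 1 (adjusted p = 0.000772). Without YK-4-279 replicate 1, 2 or 3 the adjusted p was 0.124, 0.0928 and 0.0822, and without the intensity trend it was 0.111.

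The exons of ENOSF1, on the opposite strand, cover 967 of the 1613 bases of the TYMS transcript. The strand setting of the counting was not given in the sources used here, so the TYMS values are uncertain where reads could belong to either gene. ENOSF1 itself averaged 258 ± 15.3 normalized counts in DMSO and 211 ± 25.7 in treated libraries (± SD, n = 3 per group), and its log2 change of -0.29 did not pass the test (limma adjusted p = 0.189).

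DUT, the dUTPase that keeps uracil out of DNA and supplies dUMP (chromosome 15, 48331429 to 48343373, plus strand), was at 1498, 1621 and 1603 normalized counts in the DMSO libraries and at 1254, 1233 and 1302 in the treated ones. The groups did not overlap, and DMSO replicate 1 was here the lowest DMSO library. DUT fell by 0.32 on the log2 scale (standard error 0.06, limma adjusted p = 0.0185), with a value of -0.35 (adjusted p = 1.03e-06) without DMSO replicate 1. The call was lost without DMSO replicate 3 (adjusted p = 0.0744) and without YK-4-279 replicate 1, 2 or 3 (0.136, 0.132 and 0.0928), and also with quantile normalization (0.0580), with the replicate number as a block (0.0635) and without limma's intensity trend (0.111). Of the 8 DUT pseudogenes annotated, the 4 present in the matrix had means of at most 2.15 normalized counts. An antisense gene, DUT-AS1, covers 17.1% of the DUT transcript and was not analysed here.

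TK1, the cytosolic thymidine kinase that salvages thymidine in S phase (chromosome 17, 78174091 to 78187052, minus strand), was at 3416, 4268 and 4120.4 normalized counts in the DMSO libraries and at 3265, 3269.7 and 3283 in the treated ones. The groups did not overlap, although DMSO replicate 1 was much closer to the treated libraries than to the other DMSO libraries. With all libraries, the log2 change of -0.26 (standard error 0.08) missed the threshold (limma adjusted p = 0.0810). It was -0.36 and passed without DMSO replicate 1 (adjusted p = 7.81e-09), and it passed in DESeq2 with all libraries (adjusted p = 0.0460). By non-overlap, 6 of the 9 genes were lower in each treated library than in any DMSO library, against 15.1% of all genes tested.

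DTYMK, thymidylate kinase, phosphorylates dTMP from both routes (chromosome 2, 241675747 to 241686815, minus strand). Its normalized counts were 2309.95, 2816 and 2719 in the DMSO libraries and 2348, 2429 and 2404 in the treated ones. DMSO replicate 1 was the lowest of all 6 libraries, so that the groups overlapped. The log2 change was -0.12, with a 95% interval from -0.28 to 0.04 (limma adjusted p = 0.396). Without DMSO replicate 1 it was -0.21 (adjusted p = 0.000524).

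The TYMS to TK1 ratio, which compares the de novo with the salvage source of dTMP, was 0.126, 0.0782 and 0.0833 with DMSO and 0.0722, 0.0774 and 0.0774 with YK-4-279. The log2 ratio differed by -0.31 (exact permutation p = 0.10, the smallest possible; adjusted 0.15). The difference rested on DMSO replicate 1, and without it was -0.09.

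DCK, deoxycytidine kinase, starts the salvage of deoxycytidine and activates nucleoside drugs such as cytarabine and gemcitabine. DCK (chromosome 4, 70993649 to 71030914, plus strand) was at 1200.4, 996 and 1001 normalized counts in the DMSO libraries and at 746, 867 and 811 in the treated ones. The groups did not overlap, with DMSO replicate 1 the highest library and YK-4-279 replicate 1 the lowest. DCK fell by 0.40 on the log2 scale (standard error 0.09, limma adjusted p = 0.0280), and the value was -0.31 without DMSO replicate 1 (adjusted p = 0.000278). Its limma adjusted p was 0.204, 0.0950 and 0.126 without YK-4-279 replicate 1, 2 or 3, 0.0583 with quantile normalization, 0.0700 with the replicate number as a block and 0.162 without the intensity trend. MOB1B, whose exons cover 7.94% of the DCK transcript on the same strand, had a log2 fold change of -0.05 (limma adjusted p = 0.753).

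SAMHD1, the dNTP triphosphohydrolase that lowers deoxynucleotide pools outside S phase (chromosome 20, 36890229 to 36951708, minus strand), was at 396, 322 and 361 normalized counts in the DMSO libraries and at 359, 352 and 363 in the treated ones. The treated libraries lay inside the DMSO range. The 95% interval of its log2 change ran from -0.21 to 0.21 (limma adjusted p = 0.999), so that differences of this size in either direction were not detectable. Its sign turned with the setting.

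**Figure D3:**
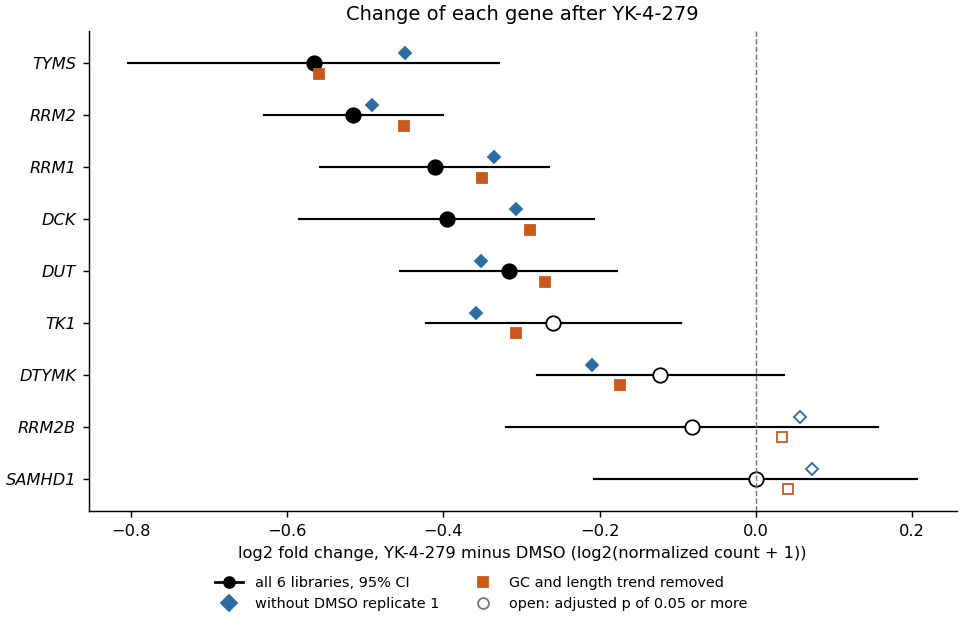
Log2 fold change of each gene, YK-4-279 minus DMSO, on log2(normalized count + 1) (horizontal axis), with all 6 libraries and the 95% confidence interval (black circles and lines), without DMSO replicate 1 (blue diamonds) and with each library's GC content and length trend removed (orange squares), open symbols having an adjusted p of 0.05 or more. RRM1, RRM2, TYMS, DUT and DCK are filled in all 3 fits, TK1 and DTYMK in the latter 2, and RRM2B and SAMHD1 in none.

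DMSO replicate 1 differed from the other DMSO libraries in opposite directions among the 9 genes. Its log2 level lay above the mean of replicates 2 and 3 by 0.42 for RRM2B, 0.35 for TYMS, 0.27 for DCK, 0.23 for RRM1, 0.21 for SAMHD1 and 0.07 for RRM2, and it differed by -0.30 for TK1, -0.26 for DTYMK and -0.11 for DUT. The genes furthest below, TK1 and DTYMK, had the highest transcript GC contents of the 9, 60.3% and 57.8%, whereas RRM2B and DCK, among the 3 furthest above, had the lowest, 35.1% and 35.4%. Without this library, 7 of the 9 genes were called lower, against 8.46% of all genes, and the genes gained were TK1 and DTYMK. The same 7 were called when a smooth trend of each library with transcript GC content and length was removed with all 6 libraries kept, an alternative chosen after the results were seen, against 6.83% of the 13705 genes it covered. In it, TK1 and DTYMK had log2 fold changes of -0.31 (limma adjusted p = 5.94e-05) and -0.17 (adjusted p = 0.00603). Whether a technical difference set the values of DMSO replicate 1 was not tested.

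**Figure D4:**
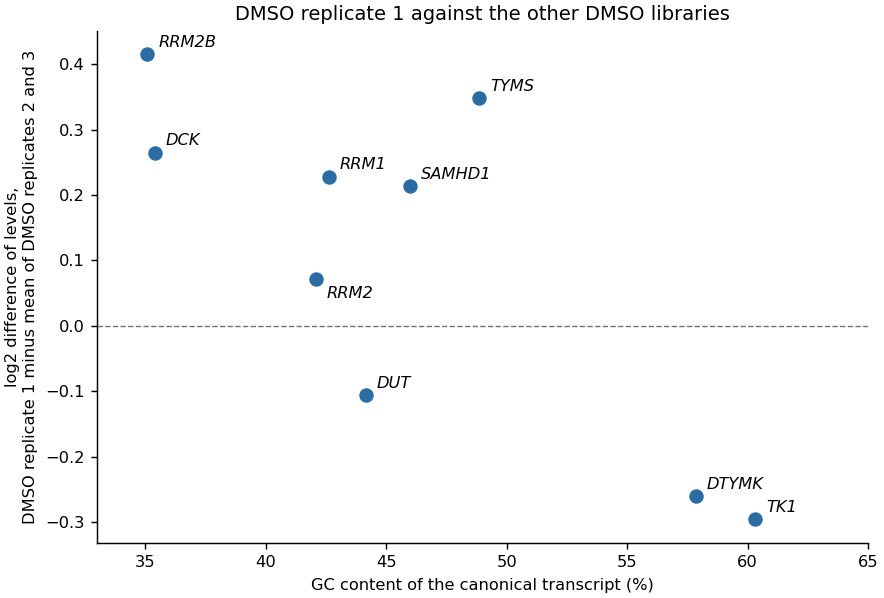
Difference of log2 levels between DMSO replicate 1 and the mean of DMSO replicates 2 and 3 (vertical axis) against the GC content of the canonical transcript in percent (horizontal axis), 1 point for each of the 9 genes. TK1 and DTYMK lie at the GC-rich end at -0.30 and -0.26, and RRM2B and DCK at the GC-poor end at 0.42 and 0.27, while TYMS, at 48.9% GC, lies at 0.35.

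Levels were compared between genes as RPKM, reads scaled to the length of the canonical transcript and the total of the library. With DMSO, on this scale, RRM2 was highest at 223 ± 3.98 and TK1 and DTYMK followed at 132 ± 16.6 and 119.6 ± 13.5 (± SD, n = 3 per group). TK1 lay above DTYMK in each DMSO library, at 113, 144 and 140 against 104, 129 and 126 in replicates 1, 2 and 3. RRM1 stood at 70.9 ± 5.80, DUT at 35.3 ± 1.87, DCK at 20.4 ± 1.99, TYMS at 11.0 ± 1.47, RRM2B at 5.67 ± 0.932 and SAMHD1 at 3.71 ± 0.355, in steps larger than their SDs. With YK-4-279 the order of the means was kept, with RRM2 at 162 ± 3.10, TK1 at 114 ± 1.69, DTYMK at 113.6 ± 1.41 and TYMS at 7.65 ± 0.295. TK1 and DTYMK were then nearly level, and in YK-4-279 replicate 2 DTYMK (113.4) lay above TK1 (112.1). The low place of TYMS per length is subject to the overlap with ENOSF1.

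Across the 6 libraries, the genes outside the set whose log2 levels followed RRM2 most closely, of 10690 searched, were SFMBT1, RFLNB, TUBB, CDCA7 and ADAMTS12, with Pearson correlations of 0.996 to 0.998. TUBB, a beta tubulin with near-identical copies among which reads may have been split, was at 29462 ± 1107 normalized counts in DMSO and 22380.4 ± 709 in treated libraries (± SD, n = 3 per group). Among the 9 genes, the correlation with RRM2 was 0.93 to 0.96 for RRM1, TYMS, DUT and DCK, 0.73 for TK1, 0.50 for DTYMK, 0.34 for RRM2B and 0.07 for SAMHD1. The 6 points share the split by treatment, and these values describe it.

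The neighbouring steps of nucleotide metabolism were followed in 9 lists of 70 genes. Of the 67 tested, 7 were called lower and none higher, against 2.15% lower and 1.26% higher of all genes tested. The median log2 change was -0.07. The difference between these lists and the 9 genes was not tested. Among the 7 were SHMT1, SLC29A1, PAICS, AK4, GMPS and CTPS1. Without DMSO replicate 1, 17 were called lower, against 8.46% of all genes. Without DMSO replicate 3 only 2 were, and without YK-4-279 replicate 1, 2 or 3 none was, while 2 were called higher without DMSO replicate 2. With eBayes without trend none was called, and with quantile normalization or the replicate number as a block 1 was, in the folate cycle.

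In the folate cycle, which carries the methyl group used by TYMS, 2 of 11 genes fell and 9 did not pass, with a median log2 fold change of -0.21, while 7 were called lower without DMSO replicate 1. SHMT1, the cytosolic serine hydroxymethyltransferase that loads the folate, fell by 0.29 on the log2 scale (limma adjusted p = 0.0321). SHMT2, its mitochondrial form and the most abundant gene of the list, had a log2 fold change of -0.08 (limma adjusted p = 0.603).

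Of the 13 genes of de novo purine synthesis, 2 fell: PAICS, with a log2 fold change of -0.29 (limma adjusted p = 0.0298), and GMPS, with -0.28 (adjusted p = 0.0435). In pyrimidine synthesis 1 of 5 passed, the CTP synthase CTPS1, with -0.23 (limma adjusted p = 0.0409). That call was also lost in edgeR (adjusted p = 0.0532), with no filter on low values, with TMM scaling and without DMSO replicate 3. CAD, which catalyses the opening steps, averaged 6316 ± 362 normalized counts in DMSO and 6315 ± 151 in treated libraries (± SD, n = 3 per group). SLC29A1, the equilibrative nucleoside transporter that brings thymidine and nucleoside drugs into the cell, fell from 2701 ± 128 to 2180 ± 23.7 (log2 fold change -0.31, limma adjusted p = 0.0145), and was the only one called of 5 transporters. Among 11 mono- and diphosphate kinases tested, AK4 was called, with a log2 change of -0.28 (limma adjusted p = 0.0382), a call lost with TMM scaling and without DMSO replicate 3. The calls of SLC29A1 and GMPS were also lost without DMSO replicate 3.

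With all libraries, no gene passed in limma among 4 tested of other salvage and deamination, led by DCTD at -0.07 on the log2 scale, among 6 that clean the dNTP pool, led by DCTPP1 at -0.13, among 8 of nucleotide breakdown, led by NT5C3B at -0.01, and among 4 electron donors of the reductase, led by thioredoxin, TXN, at -0.18. These values are log2 fold changes of the gene with the highest mean in each list. PNP, a purine nucleoside phosphorylase of the breakdown list chosen after its value was seen, had the most negative log2 change of the 67 pathway genes, -0.44 (limma adjusted p = 0.0681), from 294 ± 33.4 to 217 ± 30.4 normalized counts (± SD, n = 3 per group), with no overlap. It passed in DESeq2 (adjusted p = 0.0493), without DMSO replicate 1 (0.0268) and with GC content and length trends removed (0.0167), and TXN passed without DMSO replicate 1 (0.0378).

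**Figure D5:**
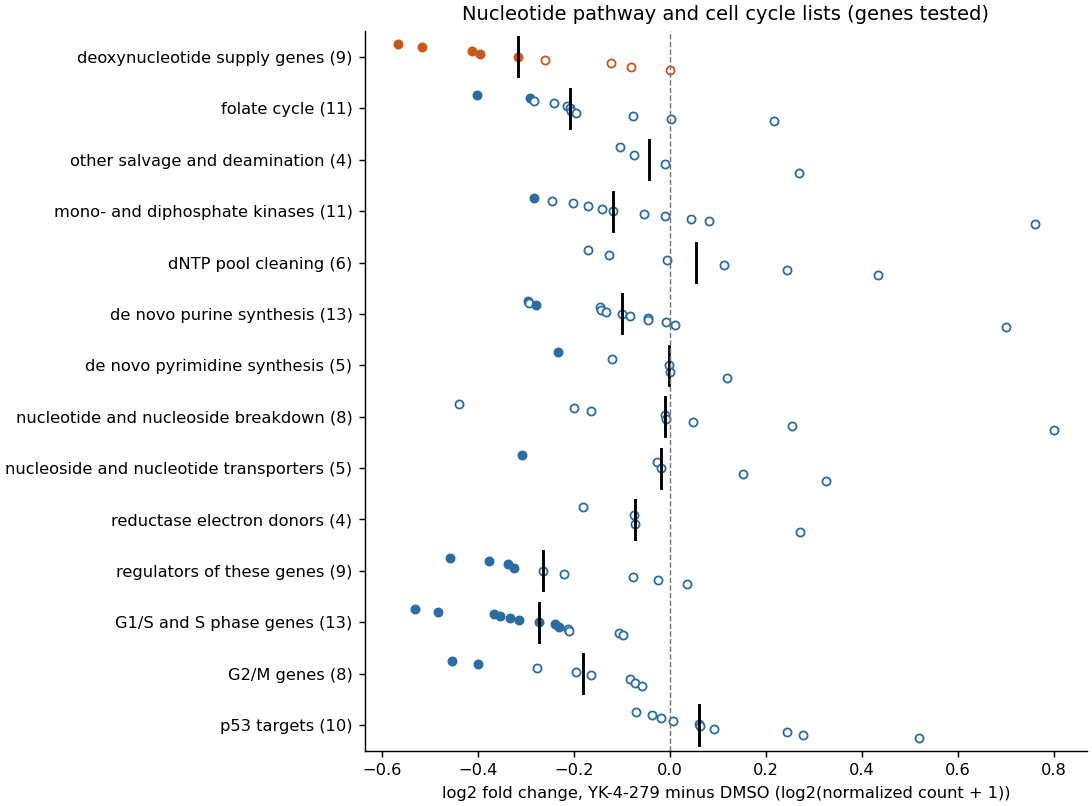
Log2 fold change, YK-4-279 minus DMSO, on log2(normalized count + 1) (horizontal axis) of each gene tested in the 9 deoxynucleotide supply genes (orange), the 9 pathway lists and 4 cell cycle and regulator lists (blue), with the number tested in parentheses, filled points at an adjusted p under 0.05 and a line at each median. The deoxynucleotide supply genes have a median of -0.32, the folate cycle -0.21, the G1/S and S phase genes -0.27 and the p53 targets 0.06.

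Lists of cell cycle genes and of regulators were described beside the 9 genes, and the difference between them was not tested. With all libraries, 2.15% of all genes tested were called lower and 1.26% higher. Of 13 G1/S and S phase genes, 9 were called lower and none higher, the median log2 change being -0.27, among them the cyclin CCNE2, the repressor E2F8 and the replication clamp PCNA at -0.53, -0.48 and -0.37 (limma adjusted p = 0.0106, 0.0109 and 0.00741), while the helicase subunit MCM7, the most abundant, was at -0.21 (adjusted p = 0.0837). Their summed level was 48211 to 49290.0 normalized counts with DMSO and 40949 to 42100.2 with YK-4-279. Of 8 G2/M genes, 2 were called lower, the proliferation marker MKI67 and topoisomerase TOP2A, with -0.40 and -0.45 (limma adjusted p = 0.00724 and 0.00626), and the median was -0.18. Among 9 regulators of the deoxynucleotide enzymes, 4 were called lower: CDK1, CDK2 and CCNA2, which phosphorylate SAMHD1 as kinase complexes, at -0.46, -0.38 and -0.34 on the log2 scale, and CCNF, which directs RRM2 to degradation, at -0.32. Of 10 p53 targets listed beside RRM2B, none was called, with a median of 0.06, and CDKN1A had a log2 fold change of 0.09 (limma adjusted p = 0.536). Without DMSO replicate 1, where 8.46% of all genes were lower, the calls were 13 of 13 G1/S and S phase genes, 3 of 8 G2/M genes and 6 of 9 regulators lower, and 1 p53 target each lower and higher. Most calls were lost without a treated library: without YK-4-279 replicate 1 or 2, or with eBayes without its trend, 0 genes of these lists were called, and without YK-4-279 replicate 3, 1 G2/M gene and 1 regulator were. The G1/S and S phase count was also 4 without DMSO replicate 3, 5 with quantile normalization and 3 with the replicate number as a block. The part of cell cycle phase in the values of the deoxynucleotide genes was not tested.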

How the data were processed

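mRNA libraries of Rh30 cells (3 DMSO, 3 YK-4-279) were compared. The authors used BBDuk for trimming and STAR 2.7.9a for alignment to hg38 and gene counting, and their tools include DESeq2 1.44.0. They deposited normalized counts, a signal scaled by each library's size factor. In each library 100% of the values were whole multiples of the smallest value above 0 (tolerance 0.001), which gave back the reads, on which edgeR called 465 genes and DESeq2 635. Of 35269 rows, 1 had no gene name and was left out (at most 6 reads per library).

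The test was moderated regression by limma 3.58.1 under R 4.3.3, eBayes using the intensity trend, on log2(normalized count + 1) over 13930 genes with a mean of at least 10, two-sided, with Benjamini-Hochberg adjustment. The pseudocount understates changes of low genes. Ratios were tested with exact permutation in SciPy 1.17.1. Alternatives were other pseudocounts, filters and scalings, a replicate block, eBayes lacking the trend, omission of single libraries, edgeR 4.0.16, DESeq2 1.42.0 and, added after seeing the data, removal of GC content and length trends (GENCODE 44 transcripts, 98.4% of genes). The code was tested on simulated data. All 9 genes were named, and of each list the gene with the highest mean and up to 3 called genes with a mean of at least 100 and the largest change, CCNF and PNP being added after their values were seen, except that 2 of these genes are not reported here. The genes and lists were chosen with earlier results of these data known. The counting's gene annotation and strand setting were not given in the sources used here.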

Additional observations from a re-analysis of the deposited data

How the results depend on the processing

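RRM2 was called lower under each of the 17 alternatives, RRM1 and TYMS under 13, DCK under 11 and DUT under 10, and these 5 genes, TK1 and DTYMK were lower with the drug in all 17. The counts called depended on the setting, with 475 over all genes, 5 of the 9 genes and 7 pathway genes in the fit reported. With quantile normalization these were 277, 3 and 1, with eBayes without trend 33, 1 and 0, and with GC content and length trends removed 1604, 7 and 14, with 3 pathway genes then higher. Leaving out single libraries gave 19 to 1823 over all genes, 1 to 7 of the 9, 0 to 17 pathway genes lower and 0 to 2 higher. The lowest counts of genes lower came without a YK-4-279 library and the highest without DMSO replicate 1. With the replicate block the counts were 180, 3 and 1. Libraries of the same replicate number showed no shared deviation, with correlations of -0.10, -0.03 and -0.03. Whether they were paired cannot be told from these values, since each deviation is taken from a mean of 3 libraries that includes it. The cause of these shifts was not tested. The log2 change of RRM2B ran from -0.174 to 0.0569 as single libraries were left out, above 0 only without DMSO replicate 1, and was 0.0338 with trends removed. That of SAMHD1 ran from -0.0776 to 0.0716, and was 0.0149 with TMM scaling, 0.0409 with trends removed, 0.0174 in edgeR and 0.0127 in DESeq2. None of these passed the test. The ratios kept their sign under each pseudocount and without each library. TYMS, the called gene with the fewest reads, had 233 to 411 per library, which with 3 libraries a group limits the changes that could be detected.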
